A study of Mus musculus with 160 samples.

Results

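A set of 6 genes of the enteric glia was followed through 160 mouse distal colon libraries. The genes, *S100b*, *Gfap*, *Sox10*, *Foxd3*, *Erbb3* and *Cdh19*, were chosen by name and matched through their Ensembl identifiers among the 39179 genes counted in every library. All 6 passed the filter on low counts in every line, as did 17066 genes in all. Each library came from 1 mouse, from 4 knockout lines with wild-type controls. Reads were counted per gene, and levels are given here as CPM, the count scaled to the TMM-adjusted library size, or as log2 CPM with a prior count of 2.

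The *Nckap1l* line, labelled HEM1, had 16 homozygous knockout and 15 wild-type mice on C57BL6/J, given dextran sulfate sodium (DSS) for 5 days and water for 7, with tissue taken on day 12. The *Dock2* line had 18 homozygous knockout and 24 wild-type mice, and the *Gpsm3* line 20 and 20, on C57BL6/J with 3% DSS for 5 days, 5 days of water and collection on day 10. The *Dok3* line had 26 homozygous knockout and 21 wild-type mice on strain 129, with 3.5% DSS and the same days. The animals were young adults, and the controls were co-housed littermates from crosses of heterozygous parents. DSS is a polymer given in drinking water that injures the colonic epithelium. The labels do not say which mice drank DSS and which stayed untreated, so each group may hold both. The *Gpsm3* and *Dok3* mice were labelled male. Of the *Nckap1l* mice 4 knockout and 8 wild-type animals were female, and of the *Dock2* mice 8 and 12. *Dock2*, *Nckap1l*, *Gpsm3* and *Dok3* encode signalling proteins of leukocytes.

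Enteric glia are neural-crest-derived cells that surround the neurons of the myenteric and submucosal plexuses and send processes into the mucosa. They express *S100b*, a small calcium-binding protein, and *Gfap*, an intermediate filament protein that astrocytes and glia raise in the reactive state. *Sox10* and *Foxd3* are transcription factors of the neural crest and its glial descendants. *Erbb3* is the receptor through which neuregulins act on Schwann cells and their precursors, and *Cdh19* is a cadherin of glia and their precursors. *Erbb3* is also made by intestinal epithelial cells. In bulk tissue, fewer cells of a type and less RNA per cell cannot be told apart.

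Of the 6 genes, *Gfap* and *S100b* are the members that followed the inflammation genes in all 4 lines, in opposite directions, so the RefSeq promoter windows (GRCm38.p6) of these genes are shown. Each runs from 250 bases before to 50 bases after the annotated start. That of *Gfap* lies at chr11:102897151-102897450 on the minus strand, within the GENCODE span of the gene. That of *S100b* lies at chr10:76253586-76253885 on the plus strand. Capitals mark matches, on either strand, to 3 motifs: the SOX letters ACAAAG or ACAATG, the STAT letters TTCNNNGAA and the AP-1 letters TGANTCA.
Gfap: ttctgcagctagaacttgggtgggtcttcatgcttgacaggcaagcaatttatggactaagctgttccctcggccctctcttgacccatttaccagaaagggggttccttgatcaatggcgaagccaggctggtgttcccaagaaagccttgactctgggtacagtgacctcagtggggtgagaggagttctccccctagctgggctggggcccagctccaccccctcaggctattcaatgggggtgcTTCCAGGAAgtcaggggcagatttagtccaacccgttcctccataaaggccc
S100b: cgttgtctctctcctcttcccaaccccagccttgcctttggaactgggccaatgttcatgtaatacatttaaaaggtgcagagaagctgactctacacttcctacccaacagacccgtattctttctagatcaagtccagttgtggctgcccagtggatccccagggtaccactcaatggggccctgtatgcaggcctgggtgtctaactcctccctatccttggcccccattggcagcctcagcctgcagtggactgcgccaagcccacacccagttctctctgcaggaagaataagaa
The *Gfap* window held 1 match, to the STAT letters, and the *S100b* window held none of the 3 motifs. Among 32851 promoter windows of 300 bases, 8.3% held the STAT letters, 28.6% the SOX letters and 7.8% the AP-1 letters. The window of *Foxd3*, at chr4:99656049-99656348 on the plus strand, held none of them either. These matches describe letters and not bound sites.

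The glial genes other than *Erbb3* were near the lower end of the measurable range, and *Erbb3* was not. *S100b* (ENSMUSG00000033208, chr10:76253853-76261159, plus strand) ranged from 1.10 to 4.88 CPM over the 160 mice, with a median of 2.56. *Gfap* (ENSMUSG00000020932, chr11:102887336-102900912, minus strand) ranged from 1.57 to 18.5 CPM with a median of 6.02, an 11.8-fold span that was the widest of the 6. *Sox10* (ENSMUSG00000033006, chr15:79154908-79165240, minus strand) ranged from 1.05 to 7.86 CPM with a median of 4.34. *Foxd3* is a gene with a single exon and was the lowest of the set. *Foxd3* (ENSMUSG00000067261, chr4:99656299-99658622, plus strand) ranged from 0.380 to 2.93 CPM, which came from 2 to 50 counts per library. *Cdh19* (ENSMUSG00000047216, chr1:110888326-110977584, minus strand) ranged from 2.09 to 15.6 CPM with a median of 7.27. *Erbb3* (ENSMUSG00000018166, chr10:128567523-128589652, minus strand) ranged from 133 to 857 CPM with a median of 532. The coordinates are those of GENCODE on GRCm38. In the annotation 89 exonic bases of *Foxd3* are shared with the small RNA gene *Gm23366*, whose median count was 0, and the exons of the other members overlap no other gene.

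Per kilobase of exon, the median levels of *S100b*, *Cdh19*, *Gfap* and *Sox10* lay close together, at 1.72, 1.70, 1.43 and 1.42 CPM. *Foxd3* was lower, at 0.566 CPM per kilobase. *Erbb3* reached 88.4 CPM per kilobase, far above the other members and above its partner receptor *Erbb2* at 48.8. On the same scale the epithelial adhesion gene *Epcam* stood at 558 and the smooth muscle myosin gene *Myh11* at 275. These are medians over all mice, and the order among the 4 genes between 1.42 and 1.72 was not tested. Total counts ranged from 4344988 to 19993833 per library, with 152 of 160 above 10000000, so that 3 counts stood for 0.15 to 0.69 CPM. Depth therefore limited *Foxd3* most.

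The libraries carried different amounts of neighbouring tissue. The mean log2 CPM of the skin keratinocyte list ran from -0.32 to 9.4 over the 4 lines, and that of the striated muscle list from -0.09 to 9.96. A mean of at least 2 on either list was found in 17 *Nckap1l*, 7 *Dock2*, 4 *Gpsm3* and 11 *Dok3* libraries. The melanocyte genes *Tyr* and *Oca2* had 0 counts in 128 and 130 of the 160 libraries, whereas *Dct* had counts in all but 10. With line and number-block means removed, the mean over the 6 members followed the skin mean with r = 0.1 and the striated muscle mean with r = 0.12 across 160 libraries. It followed the smooth muscle mean with r = 0.52 and the enteric neuron mean with r = 0.47. The mean of the myelin and Schwann list, by contrast, followed skin with r = 0.89 and striated muscle with r = 0.87. These are descriptions over libraries of 4 lines and unlike depth, with only line and number-block means removed. In the *Dok3* line 5 libraries labelled male carried the sex markers of females. Without them the *Dok3* slopes were 0.159 for *Gfap*, -0.074 for *S100b* and -0.158 for *Erbb3*, all still called. The knocked-out gene had a lower median in knockout than in wild-type mice in each line, and the ranges overlapped in all 4. It was called only in the *Gpsm3* line, where *Gpsm3* was -2.06 ± 0.28 (SE, log2, edgeR adjusted p = 0.0001005). *Nckap1l* was -1.09 ± 0.41 (adjusted p = 0.9996), *Dock2* -0.62 ± 0.17 (adjusted p = 0.2103) and *Dok3* -0.48 ± 0.39 (adjusted p = 0.9996).

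None of the 6 members differed between knockout and wild-type mice in any line by edgeR's quasi-likelihood test at an adjusted p of 0.05. The background was small: of all genes tested, 0% were called for *Nckap1l*, 0.034% for *Dock2*, 0.00569% for *Gpsm3* and 0% for *Dok3*. At an unadjusted p under 0.05, 1 member stood out in the *Dock2* line and 0 in each of the others. DESeq2 called 1 in the *Dock2* line and limma-voom called 0 in every line. Simulated differences of 0.5 on the log2 scale were recovered in 40% to 73% of genes, depending on the line, and differences of 1 in 84% to 98.5%. The 200 genes changed in each simulation were drawn from all genes tested, whatever their level. So many changed genes also ease the adjusted threshold compared with the real fits. These rates therefore do not give the power for the 6 members.

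*Foxd3* in the *Dock2* line came closest to the threshold. It ranged from 0.861 to 2.42 CPM with a median of 1.57 in the 24 wild-type mice, and from 0.488 to 1.60 with a median of 1.16 in the 18 knockout mice. The ranges overlapped, and the fitted difference, knockout minus wild type, was -0.47 ± 0.12 (SE, log2), with unadjusted p = 0.0004154 and adjusted p = 0.1854 in edgeR. DESeq2 gave -0.48 with adjusted p = 0.0384, whereas over the 12 alternatives together the adjusted p ran from 0.0384 to 0.841 and the difference from -0.571 to -0.384. In the other lines the *Foxd3* difference was 0.157 ± 0.148 (*Nckap1l*), 0.055 ± 0.215 (*Gpsm3*) and -0.154 ± 0.173 (*Dok3*). The test that the genotype effect on *Foxd3* was equal in the 4 lines gave p = 0.0243 and adjusted p = 0.682. No member was called in that test, against 0.67% of all genes, and limma-voom called none.

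Of the other enteric glia, neuregulin and ErbB, myelin and Schwann, melanocyte and enteric neuron lists, 0 genes were called between genotypes in any line.

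*Gfap* levels were broad in both genotypes. In the *Nckap1l* line *Gfap* ran from 3.04 to 18.4 CPM with a median of 6.29 in wild type and from 2.04 to 16.8 with a median of 8.10 in knockout. In the *Gpsm3* line the medians were 5.85 and 4.52 CPM, in the *Dock2* line 6.53 and 7.30, and in the *Dok3* line 5.16 and 5.99, each in the order wild type and knockout. These medians moved in both directions and the ranges overlapped nearly entirely. The fitted differences were between 0.007 and 0.091 on the log2 scale with SE from 0.192 to 0.239. The 95% intervals reached from -0.42 to 0.56.

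*S100b* was the steadiest of the members between groups. Its median lay between 2.41 and 2.91 CPM in all 8 groups, and knockout differed from wild type by 0.049 ± 0.143, -0.096 ± 0.112, -0.001 ± 0.141 and -0.061 ± 0.108 in the *Nckap1l*, *Dock2*, *Gpsm3* and *Dok3* lines. *Sox10* was lower in knockout in the fit of every line, by -0.091 ± 0.168, -0.088 ± 0.092, -0.102 ± 0.142 and -0.081 ± 0.108 in the same order. Each of these was smaller than its SE or about equal to it, and the smallest adjusted p was 0.973. *Erbb3* differed by 0.107 ± 0.133, 0.083 ± 0.089, -0.096 ± 0.091 and 0.114 ± 0.141. *Cdh19* differed by 0.147 ± 0.179, -0.072 ± 0.107, 0.091 ± 0.173 and -0.131 ± 0.126. Across the set the median differences of the 6 members were 0.099, -0.08, 0.027 and -0.071 against 0.008, -0.003, 0.003 and 0 over all genes tested.

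**Figure D1:**
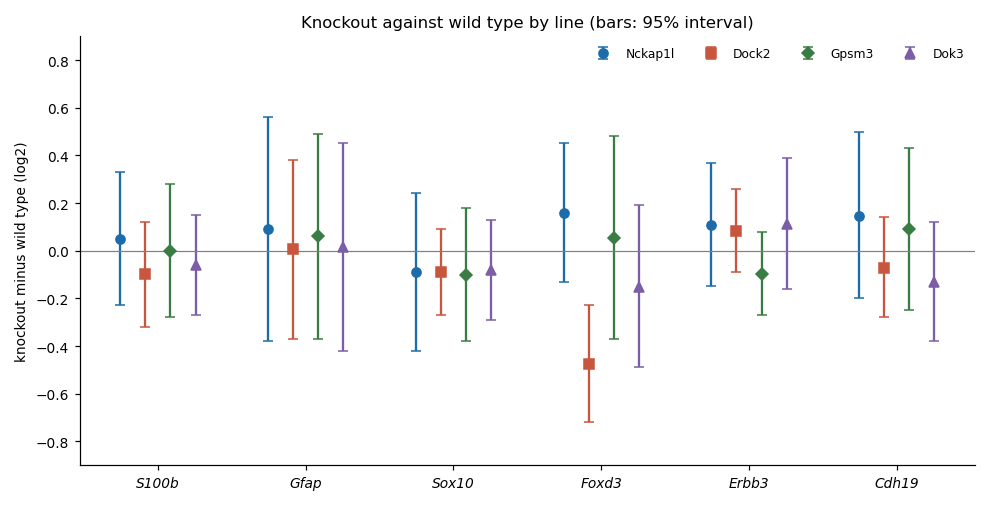
Knockout minus wild type on the log2 scale for each gene (horizontal axis) and line (colour and symbol), with 95% intervals from the edgeR SE. Apart from *Foxd3* in the *Dock2* line, at -0.47, every interval crosses 0.

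The mean levels of the 8 line and genotype groups spanned 0.19 to 0.51 on the log2 scale, depending on the gene. Mean log2 *S100b* ran from 1.48 in *Dock2* wild type to 1.29 in *Nckap1l* wild type, a span of 0.19, and *Cdh19* from 2.99 in *Dok3* wild type to 2.75 in *Nckap1l* knockout. *Gfap* had the widest span, 0.51, from 2.86 in *Nckap1l* knockout to 2.35 in *Dok3* knockout, with both *Nckap1l* and both *Dock2* groups above the *Gpsm3* and *Dok3* groups. *Sox10* ran from 2.29 in *Dock2* wild type to 1.9 in *Gpsm3* knockout. *Foxd3* had the *Dock2* wild type at the top, 0.72, and the *Dock2* knockout at the bottom, 0.26. *Erbb3* ran from 9.17 in *Dock2* knockout to 8.72 in *Nckap1l* wild type. In none of 42 permutation tests of neighbouring groups (100000 resamples, two-sided) did the groups differ beyond their spread, and the smallest was p = 0.152 for *Gfap* between *Dock2* and *Gpsm3* wild type, with an adjusted p of 0.986. The order was set by these same group means, so neighbours lay close together by construction. The tests therefore cannot show that the groups are alike. They cover neighbours in the order and not its ends, and held no sex or block term. The *Dock2* and *Gpsm3* lines share strain, DSS percentage and day and differ in the sexes they hold. The *Dok3* line differs from them in strain and DSS percentage together. The *Nckap1l* line differs from them in the days and, by the authors' account, in a lower DSS percentage.

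**Figure D2:**
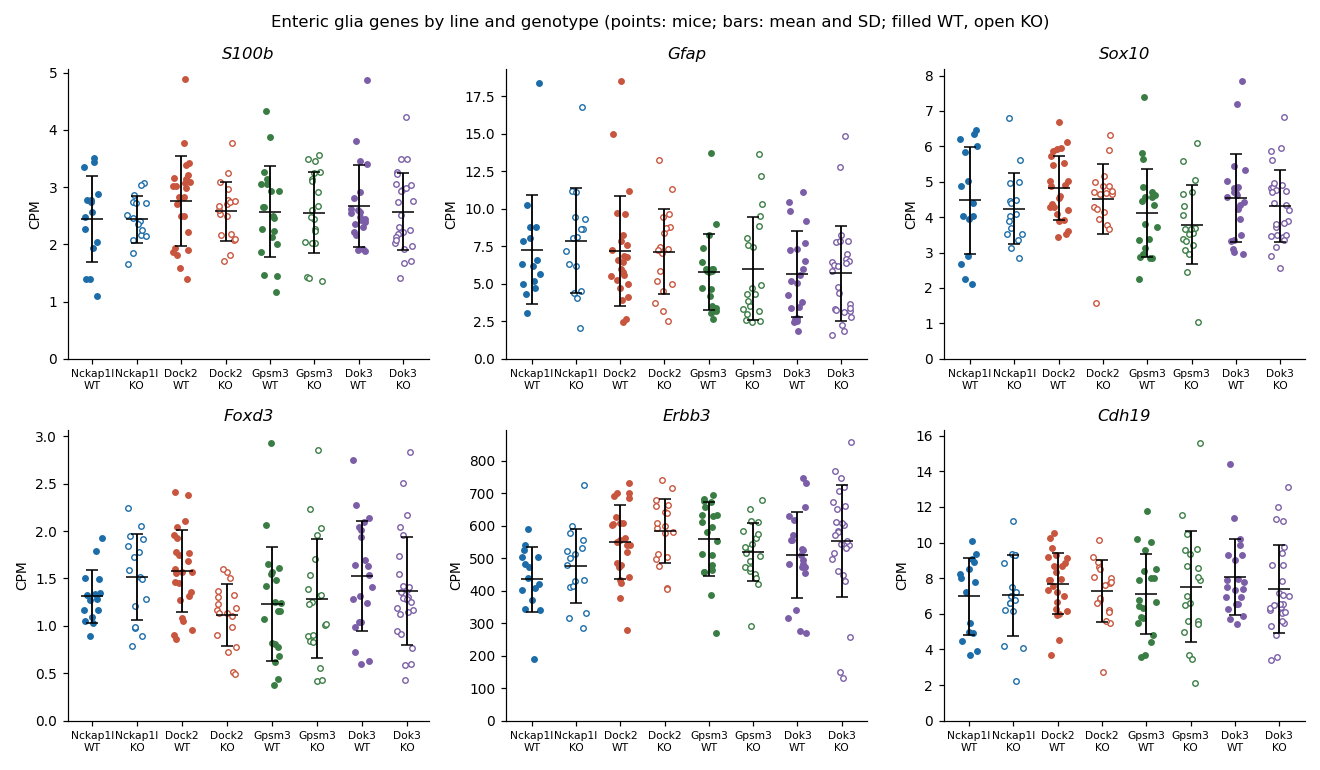
CPM of each gene in every mouse by line and genotype, wild type filled and knockout open, with mean and SD as bars. The groups overlap for every gene. *Erbb3* lies between 133 and 857 CPM, and the other genes stay at or under 18.5.

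The members of the set separated when they were set against the inflammation genes of the same colon. The score was the mean log2 CPM of 11 of 20 listed genes of neutrophils, cytokines and acute response, those tested in every line (*Clec4d*, *Cxcl1*, *Cxcl5*, *Il1a*, *Il1b*, *Lcn2*, *Nos2*, *Ptgs2*, *S100a8*, *S100a9* and *Tnf*). It ran continuously from 0.08 to 7.38 in the *Nckap1l* line, 0.04 to 7.05 in *Dock2*, -0.47 to 6.54 in *Gpsm3* and -0.36 to 8.61 in *Dok3*. *Gfap* rose with the score in all 4 lines and *S100b* fell with it in all 4. *Erbb3* fell in 3 lines and *Cdh19* in 2. The level of *Erbb3* also followed the colon epithelium mean in 3 lines, as given below, and its cell source was not tested. Neither *Sox10* nor *Foxd3* was called against the score in any line in this fit. With the colon epithelium mean added, *Sox10* was called in the *Nckap1l* line (-0.129, edgeR adjusted p = 0.015). Each slope is a log2 change per unit of score, with genotype and, where both sexes were present, sex in the fit.

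At the ends of the score the opposite course of *Gfap* and *S100b* could be read in single mice. In the *Dock2* line the mouse with the lowest score (a knockout) had 2.54 CPM of *Gfap* and 2.60 of *S100b*. The mouse with the highest score (a wild type) had 18.5 CPM of *Gfap* and 1.40 of *S100b*. In the *Gpsm3* line both genes stood at 3.05 CPM in the lowest mouse, and *Gfap* stood at 13.6 and *S100b* at 1.41 in the highest. The pair stood at like levels in these low-score mice, and *Gfap* stood far above *S100b* in the high-score mice. In the *Nckap1l* line *Gfap* went from 4.04 to 18.4 CPM and *S100b* from 3.08 to 2.48. The *Dok3* line was less regular. Its mouse with the highest score had 4.78 CPM of *Gfap* and 1.67 of *S100b*, against 1.57 and 1.72 in the lowest. These are single mice and carry no error of their own. The skin mean was 2.35, 2.29 and 2.03 in the highest mice of the *Nckap1l*, *Dock2* and *Gpsm3* lines, past the limit of 2 given above, and 1.45 in that of *Dok3*, against -0.13 to 0.41 in the lowest.

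*Gfap* rose by 0.194 ± 0.042 per unit of score in the *Nckap1l* line (SE, edgeR adjusted p = 0.000375) and by 0.273 ± 0.048 in the *Dock2* line (adjusted p = 6.24e-06). In the *Gpsm3* line the slope was 0.276 ± 0.034 (adjusted p = 1.17e-08) and in the *Dok3* line 0.16 ± 0.044 (adjusted p = 0.00144). Over the span of the score this amounted to 2.67-fold (95% interval 1.76 to 4.05), 3.77-fold (2.39 to 5.95), 3.82-fold (2.77 to 5.29) and 2.7-fold (1.58 to 4.62) in the same order. The background was high, since 48.7% of all genes followed the score in the *Nckap1l* line, 55.9% in *Dock2*, 53.8% in *Gpsm3* and 63.9% in *Dok3*. Upward calls were 23.8%, 28.8%, 28% and 33.5%. The members called were 3, 4, 3 and 3 of 6, of which 1 rose in each line, so these counts were near the background and no count marks the set off from other genes. Pearson's r of *Gfap* with the score, number-block means removed, was 0.591, 0.489, 0.792 and 0.441, with Spearman's rho of 0.621, 0.513, 0.792 and 0.453. The permutation p adjusted over 24 relations ran from 0.00012 to 0.00546 for r. Leaving out the 2 mice of each line farthest from its median *Gfap* level gave r from 0.333 to 0.731. Within the 8 number blocks, the runs of sample numbers in the labels, r was positive in all 8 and ran from 0.329 to 0.801.

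*S100b* fell by 0.089 on the log2 scale per unit of score in the *Nckap1l* line (SE 0.029, edgeR adjusted p = 0.0109) and by 0.134 in the *Dock2* line (SE 0.034, adjusted p = 0.0008). It fell by 0.133 in the *Gpsm3* line (SE 0.032, adjusted p = 0.000673) and by 0.08 in the *Dok3* line (SE 0.021, adjusted p = 0.00102). From the lowest to the highest score the fitted level became 0.637, 0.521, 0.524 and 0.608 of its starting value. Downward calls over all genes were 24.9%, 27.1%, 25.8% and 30.4%. Pearson's r with the score was -0.51, -0.6, -0.596 and -0.498, rho was -0.453, -0.562, -0.461 and -0.557, and r was negative in all 8 number blocks, from -0.82 to -0.356. Without the 2 mice of each line farthest from its median *S100b* level r lay between -0.522 and -0.459. With the interferon list as the score, no member was called in the *Dock2* line, where *Gfap* was 0.109 (edgeR adjusted p = 0.733), *S100b* -0.147 (adjusted p = 0.311), *Cdh19* -0.193 (adjusted p = 0.167) and *Erbb3* 0.026 (adjusted p = 0.852). In the permutation tests with the inflammation score the largest adjusted p of *S100b* was 0.0128 for r and 0.0286 for rho.

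*Erbb3* fell by 0.112 per unit in the *Nckap1l* line (SE 0.024, edgeR adjusted p = 0.000357), by 0.108 in the *Dock2* line (SE 0.026, adjusted p = 0.000672) and by 0.148 in the *Dok3* line (SE 0.025, adjusted p = 2.21e-06), on the log2 scale. In the *Gpsm3* line its slope was -0.044 ± 0.024 (adjusted p = 0.124). With the interferon list as the score *Erbb3* was called in no line, at -0.086 in *Nckap1l* (adjusted p = 0.376), 0.026 in *Dock2* and -0.154 in *Dok3* (adjusted p = 0.126). In the *Dok3* line *Erbb3* stood at 857 CPM in the mouse with the lowest score and at 133 CPM in that with the highest, which were the highest and lowest of all 160. *Cdh19* fell by 0.089 in the *Dock2* line (SE 0.034, adjusted p = 0.0237) and by 0.109 in the *Gpsm3* line (SE 0.042, adjusted p = 0.0263). The *Dock2* slope was not called without the 2 mice farthest from the median score (-0.077, adjusted p = 0.0832), with the smooth muscle mean in the fit (-0.059, adjusted p = 0.0678) or with *S100a8* and *S100a9* alone as the score (-0.041, adjusted p = 0.0538). Its slopes in the *Nckap1l* and *Dok3* lines were -0.071 ± 0.039 (adjusted p = 0.137) and -0.012 ± 0.027 (adjusted p = 0.702). The *Nckap1l* slope was called by limma-voom (-0.092, adjusted p = 0.0466), without the 2 farthest mice (-0.131, adjusted p = 0.013) and without the libraries of skin or striated muscle RNA (-0.149, adjusted p = 0.00459). *Sox10* had slopes of -0.046, -0.025, -0.013 and 0.026, with 95% intervals that together reached from -0.12 to 0.073. *Foxd3* had slopes of -0.008, -0.055, -0.041 and 0.044, within -0.147 to 0.117. An interval of this width leaves room for a *Sox10* change of 0.544 to 1.57 fold over the score. No member's slope differed between lines (edgeR), against 13.9% of all genes. The unadjusted p was under 0.05 for 1 member, *Erbb3* (p = 0.0201, adjusted p = 0.092), and limma-voom called 1, *Erbb3* (adjusted p = 0.0265).

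**Figure D3:**
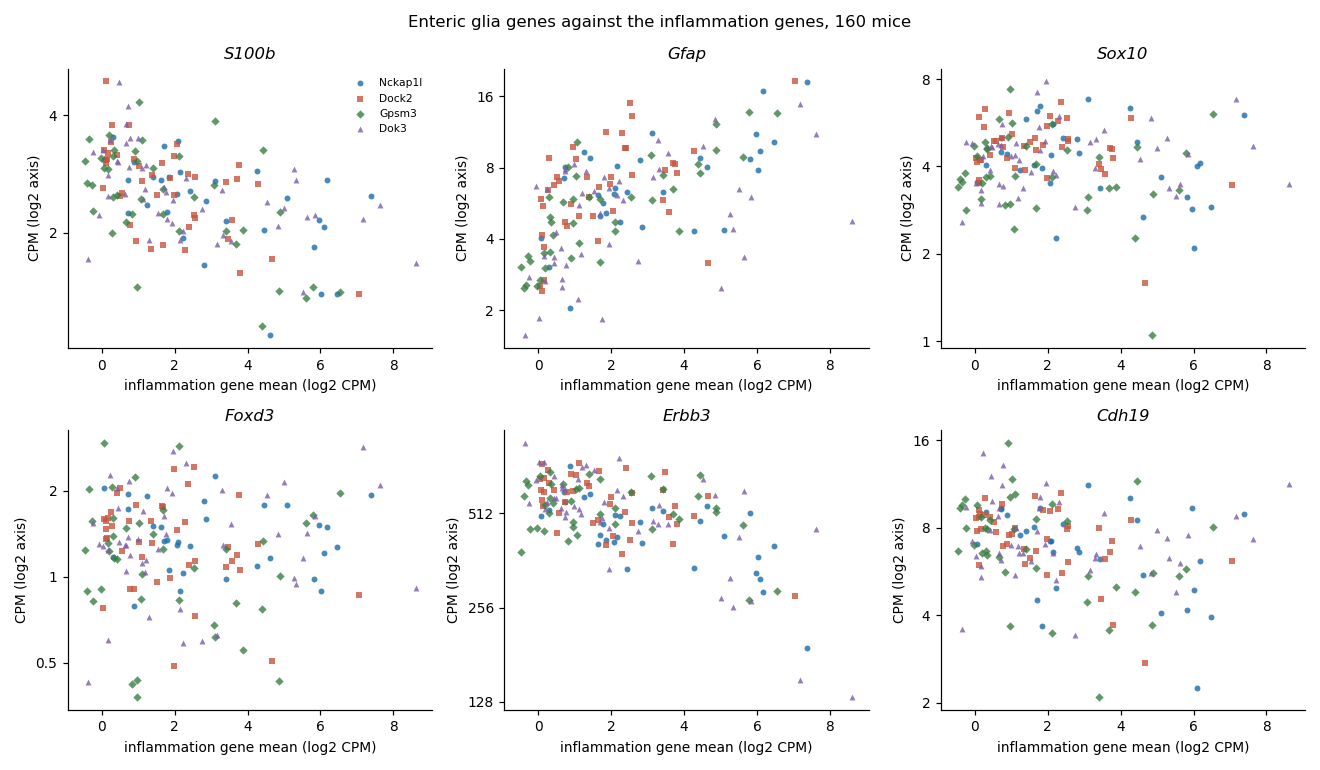
CPM of each gene (log2 axis) against the mean log2 CPM of the inflammation genes in the 160 mice, coloured by line. *Gfap* climbs from 1.57 to 4.04 CPM in the mouse of lowest score of each line to as much as 18.5 CPM, *S100b* drifts down, *Erbb3* drops at the highest scores (133 CPM in the lowest mouse), and *Sox10* and *Foxd3* show no called slope.

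The slopes of the members differed from one another in the same mice. The log2 difference of *Gfap* and *Sox10* rose with the score by 0.223 ± 0.057, 0.295 ± 0.042, 0.327 ± 0.047 and 0.124 ± 0.042 in the *Nckap1l*, *Dock2*, *Gpsm3* and *Dok3* lines (SE, permutation within blocks, adjusted p over 12 tests from 2.4e-05 to 0.00591). The difference of *S100b* and *Sox10* fell in every line, by 0.074, 0.096, 0.089 and 0.094 (permutation, adjusted p from 0.00131 to 0.0308). Thus *Gfap* rose and *S100b* fell also relative to *Sox10* in the bulk tissue. Whether these RNAs came from the same cells was not tested, and no tissue means were in these fits. The difference of *Gfap* and *S100b* had the steepest slopes, 0.296, 0.391, 0.416 and 0.218 (adjusted p from 2.4e-05 to 0.000154 by permutation). These tests were chosen after the slopes of the single genes were known and share those measurements.

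**Figure D4:**
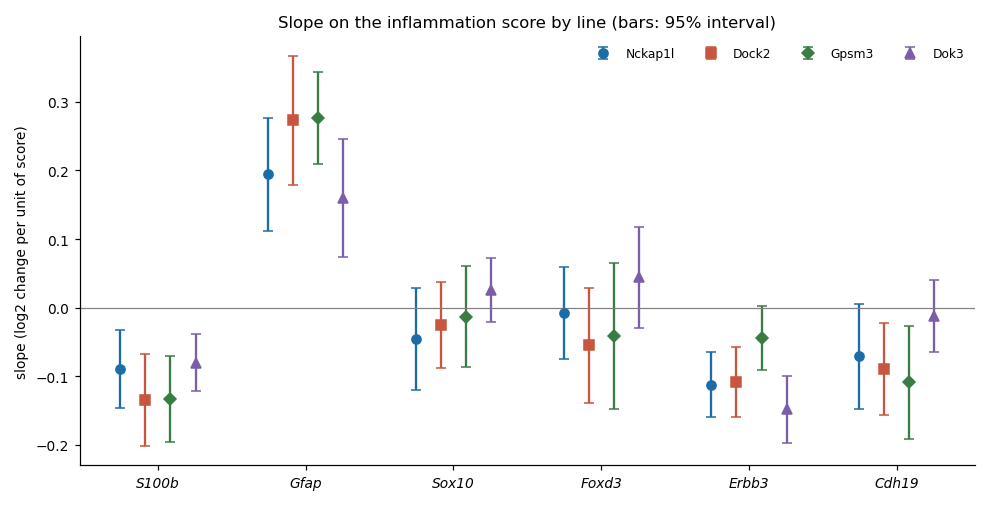
Slope of each gene on the inflammation score by line with 95% intervals. *Gfap* lies above 0 and *S100b* below 0 in all 4 lines, and the *Sox10* and *Foxd3* intervals all include 0.

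Other tissue moved with the score as well, and its part in these slopes was not tested beyond the fits given here. Of the skin list 0 of 10 genes tested rose with the score in the *Nckap1l* line, 9 of 9 in *Dock2*, 4 of 6 in *Gpsm3* and 9 of 9 in *Dok3*, and of the striated muscle list 0 of 11, 6 of 8, 6 of 8 and 10 of 10. The skin mean followed the score with r of 0.247, 0.374, 0.238 and 0.435. Without the libraries of skin or striated muscle RNA the *Gfap* slope was 0.293 in the *Dock2* line, 0.274 in *Gpsm3* and 0.168 in *Dok3*, all still called (edgeR adjusted p from 1.43e-07 to 0.00657). In the *Nckap1l* line, where 14 of 31 mice were left, it was 0.158 and no longer called (adjusted p = 0.0766), and *Erbb3* was -0.082 (adjusted p = 0.0667). *S100b* stayed called in all 4 lines without them, with slopes of -0.205, -0.167, -0.142 and -0.083. Smooth muscle went down in part: 9 of 11 smooth muscle genes fell with the score in the *Gpsm3* line, 3 of 11 in *Nckap1l* and *Dock2* each and 1 of 11 in *Dok3*. With the smooth muscle mean in the fit, *S100b* in the *Gpsm3* line was -0.071 (adjusted p = 0.0805) and no longer called, *Cdh19* there was 0, and *Gfap* was 0.281 (adjusted p = 4.09e-07). With the skin and striated muscle means in the fit, *S100b* was no longer called in the *Gpsm3* line (-0.074, adjusted p = 0.314) or the *Dok3* line (-0.058, adjusted p = 0.0753), and *Gfap* was called in all 4. With the colon epithelium mean in the fit, *Gfap* and *S100b* were called in all 4 lines, and *Erbb3* was called in the same 3 lines, at -0.058 in *Nckap1l* (adjusted p = 0.0419), -0.109 in *Dock2* and -0.075 in *Dok3*, against -0.112, -0.108 and -0.148 without it. *Sox10* was called as well in the *Nckap1l* line in that fit, as given above. Epithelial genes fell with the score, 7 of 11 in the *Nckap1l* line, 2 in *Dock2* against 4 that rose, 4 in *Gpsm3* and 8 in *Dok3*, and the chloride exchanger gene *Slc26a3* fell in all 4 (-0.337 to -0.44).

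The other enteric glia genes also went both ways, but with more rising than falling in each line, whereas more members fell than rose. Of 16 other enteric glia genes, 15, 14, 13 and 14 were tested in the *Nckap1l*, *Dock2*, *Gpsm3* and *Dok3* lines. Of these 5, 7, 5 and 7 rose with the score and 2, 2, 3 and 2 fell. Over all genes tested 23.8%, 28.8%, 28% and 33.5% rose and 24.9%, 27.1%, 25.8% and 30.4% fell. Their median slopes were 0.031, 0.047, 0 and 0.053, against 0.001, 0, 0 and 0.002 over all genes tested. *Gpm6b*, a membrane glycoprotein, rose in every line, from 0.136 ± 0.020 (*Dock2*) to 0.286 ± 0.019 (*Dok3*). *Ttyh1*, a chloride channel family member of glia, rose in every line, from 0.118 ± 0.020 to 0.283 ± 0.032. *Ngfr*, the low-affinity neurotrophin receptor, rose in the *Dock2* line (0.129, edgeR adjusted p = 0.00664) and in the *Dok3* line (0.086, adjusted p = 0.0372) and was 0 and 0.013 in the other lines.

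Of the 5 neuregulin and ErbB partners tested, 1, 1, 1 and 2 rose with the score and 1, 1, 0 and 1 fell in the *Nckap1l*, *Dock2*, *Gpsm3* and *Dok3* lines. *Nrg1*, which encodes the neuregulin that binds the *Erbb3* protein, rose with the score in all 4 lines, by 0.472 ± 0.030, 0.401 ± 0.034, 0.361 ± 0.031 and 0.443 ± 0.027 in the order *Nckap1l*, *Dock2*, *Gpsm3* and *Dok3* (edgeR adjusted p from 5.09e-19 to 2.02e-12). Its level ran from 3.96 to 80.4 CPM over the 160 mice, with a median of 8.66. *Erbb2*, the co-receptor of *Erbb3*, fell in 3 lines, by 0.126, 0.101 and 0.158, and had a slope of -0.046 ± 0.022 in the *Gpsm3* line (adjusted p = 0.0788), the same line in which *Erbb3* was not called. *Nrg2* and *Nrg3* were called in no line, and *Nrg4* rose in the *Dok3* line (0.196). *Erbb4* did not pass the filter and had 0 counts in 51 libraries.

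Of the myelin and Schwann list, 9 genes were tested in each line. With the score 1, 4, 3 and 5 rose and 3, 2, 3 and 3 fell in the *Nckap1l*, *Dock2*, *Gpsm3* and *Dok3* lines. The mean of this list followed the skin and striated muscle means with r = 0.89 and 0.87. The part of that tissue in these slopes was not tested. *Mbp*, the gene of myelin basic protein, fell in all 4 (-0.04 to -0.072) and *Ncmap*, a myelin-associated membrane protein, rose in all 4 (0.213 to 0.365). Of the 12 enteric neuron genes 2, 1, 2 and 4 rose and 0, 3, 2 and 0 fell in the *Nckap1l*, *Dock2*, *Gpsm3* and *Dok3* lines. *Ret*, the receptor of glial-derived neurotrophic factor, rose in every line (0.073 to 0.205). *Elavl4*, a neuronal RNA-binding protein gene, was called in none (-0.082 to 0.031). *Uchl1*, a neuronal ubiquitin hydrolase gene, fell in the *Dock2* line (-0.07, adjusted p = 0.0432) and had slopes from -0.062 to 0.041 in the other lines, which were not called.

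*Sox10*, *Foxd3* and *Cdh19* varied together, whereas *Gfap* and *Erbb3* joined them in part or not at all. Over the mice of a line, with block means removed, 20 of 60 correlations (15 pairs in 4 lines) passed an adjusted permutation p of 0.05 for Pearson's r, and 14 passed for both r and Spearman's rho. *Sox10*, *Foxd3* and *Cdh19* were correlated positively in every line, and each of the 3 pairs passed in 3 lines. Genotype and sex were not removed. In the *Dock2* line these genes were 0.26, 0.357 and 0.264 higher in females (log2), which edgeR did not call. The pairs also passed in the *Gpsm3* and *Dok3* lines, which were labelled male. The part of sex in these correlations was not tested. *Sox10* and *Cdh19* had r from 0.321 (*Nckap1l*) to 0.712 (*Dock2*), *Foxd3* and *Cdh19* from 0.37 to 0.61, and *Sox10* and *Foxd3* from 0.369 to 0.642. Without the 2 mice farthest from the median of the first gene of each pair, the lowest r of these pairs were 0.156, 0.351 and 0.186. *S100b* was correlated with *Cdh19* in 3 lines, with r from 0.223 to 0.619 over the 4.

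*Gfap* was tied to *Sox10*, *Foxd3* and *Cdh19* only in part, and *Erbb3* passed with none of them in any line. *Gfap* was negatively correlated with *S100b* in all 4 lines, r from -0.548 to -0.256, and passed in the *Gpsm3* line alone (permutation adjusted p = 0.00193). *Gfap* and *Erbb3* were negative in all 4, r from -0.529 to -0.222, and passed in the *Nckap1l* and *Dock2* lines for r and in no line for rho. *Gfap* and *Sox10* were positive in 3 lines, and passed in *Dock2* (r = 0.406) and *Dok3* (r = 0.364), where rho did not pass in the latter. *Erbb3* and *Sox10* ran from -0.31 to 0.071 and passed in no line. With the inflammation score removed from every gene, 19 of the 60 correlations passed, and they were not all the same ones. *Gfap* and *S100b* then had r from -0.155 to -0.001, and *Gfap* and *Erbb3* passed in no line. *Gfap* and *Sox10* passed in the *Dock2* line (r = 0.647, permutation adjusted p = 0.00075) and *Gfap* and *Foxd3* in the *Nckap1l* line (r = 0.543, adjusted p = 0.0129), both positive. *Erbb3* and *Cdh19* passed as negative in the *Dock2* line (r = -0.456) and the *Dok3* line (r = -0.476).

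**Figure D5:**
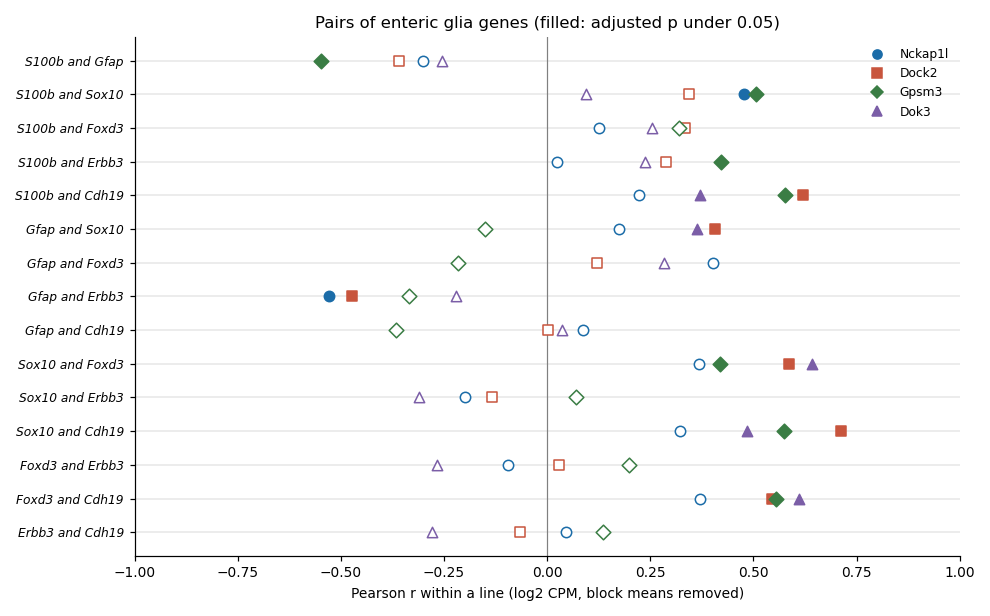
Pearson's r of the 15 gene pairs within each line, filled where the adjusted permutation p is under 0.05. The pairs of *Sox10*, *Foxd3* and *Cdh19* lie between 0.321 and 0.712, and those of *Gfap* with *S100b* or *Erbb3* lie below 0.

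Against the tissue layers the members divided again. *Sox10* followed the smooth muscle mean in all 4 lines (r from 0.406 to 0.555, each passing a permutation p adjusted over 72), *Foxd3* in 3 and *Cdh19* in 3, the last with r up to 0.769 in the *Gpsm3* line. *S100b* followed smooth muscle in the *Dock2* and *Gpsm3* lines (r = 0.574 and 0.68). *Erbb3* passed with smooth muscle in no line (r from -0.246 to 0.213). It followed the colon epithelium mean in 3 lines, with r = 0.743 in *Nckap1l*, 0.404 in *Gpsm3* and 0.842 in *Dok3*, and r = 0.063 in *Dock2*. No other member had a passing positive correlation with the epithelium. *Sox10* was negative against it in all 4 lines (-0.465 to -0.146) and passed in 2. Enteric neuron genes followed *Foxd3* in all 4 lines (r from 0.347 to 0.465, rho from 0.208 to 0.468), *Cdh19* in 3, *Sox10* and *Gfap* in 2 each, *S100b* in 1 and *Erbb3*, negatively, in 1.

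The genes whose course was most like that of each member, over 160 mice with line and block means removed and among 16869 other named genes, differed between the members. For *Cdh19* the closest included *Cped1* (r = 0.717) and *Rgs7bp* (r = 0.706). For *Sox10* the closest were *Kcna6* (r = 0.67), a potassium channel subunit, and *Aatk* (r = 0.666), a kinase, and for *Foxd3* they were the same pair (*Aatk* at 0.602 and *Kcna6* at 0.594). *Foxd3* ranked 141st and *Cdh19* 87th among the genes most like *Sox10*. For *S100b* the closest were *Ston1* (r = 0.681) and *Crim1* (r = 0.67). For *Gfap* they were *Tnc* (r = 0.788) and *Thbs1* (r = 0.744), both matricellular proteins, then *Mmp19* (r = 0.734), a matrix metalloproteinase. For *Erbb3* they were *Etl4* (r = 0.942) and *Erbb2* (r = 0.927), with the Wnt-pathway receptor gene *Lgr4* at 0.876. *Gfap* ranked 12808th and *Sox10* 10472nd in likeness to *Erbb3*. By mean r over the 6 members the first was *Kcna6* (r = 0.387). No gene of the other enteric glia list was among the 5 closest to *Erbb3*, and the same held for *S100b*, *Gfap*, *Sox10* and *Foxd3*. The levels of *Erbb3* here are those of the whole colon tissue.

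Neither sex nor number block had a called effect on any member in the edgeR fits on all mice of a line without the score. In the *Dock2* line, with 20 females and 22 males, edgeR called 0 of 6 members against 9.75% of all genes, and 3 members had an unadjusted p under 0.05. *Sox10* was 0.26 ± 0.091 higher in females (log2, adjusted p = 0.0597), *Foxd3* 0.357 ± 0.121 (adjusted p = 0.0519) and *Cdh19* 0.264 ± 0.106 (adjusted p = 0.104). Without the 7 libraries of skin or striated muscle RNA these 3 were called, at 0.31, 0.402 and 0.349 (adjusted p from 0.026 to 0.0357), and limma-voom on all mice called *Foxd3* alone. With the inflammation score in the edgeR fit *Gfap* was called, at 0.622 (adjusted p = 0.00593) against 0.341 without it. In the same comparison 6 of 14 other enteric glia genes were higher in females and 1 lower, 7 of 12 enteric neuron genes were higher, and 2 of 15 inflammation genes were lower, with a median of -1.525 over that list. The part of these lists in the members' values was not tested. In the *Nckap1l* line, with 12 females and 19 males, 0 members were called against 0.178% of all genes, and limma-voom called 0. *Cdh19* was 0.414 ± 0.182 higher in females there (p = 0.0305 unadjusted, adjusted p = 0.269 in edgeR) while *Sox10* and *Foxd3* were -0.022 ± 0.173 and -0.149 ± 0.152. Between number blocks 0 members were called by edgeR in the *Nckap1l*, *Gpsm3* and *Dok3* lines, against 38%, 7.93% and 0.125% of all genes. Those with an unadjusted p under 0.05 were *Erbb3* and *Sox10* in the *Nckap1l* line, where limma-voom called *Sox10* (adjusted p = 0.0423), *Foxd3* and *Sox10* in the *Gpsm3* line and *Sox10* in the *Dok3* line. *Sox10* was 0.393 ± 0.13 higher in the second block of the *Gpsm3* line (adjusted p = 0.0522) and was called by limma-voom (0.419, adjusted p = 0.038) and with the score in the edgeR fit (0.407, adjusted p = 0.0314). The labels do not say what a block of numbers stands for.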

How the data were processed

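The libraries were made from ribosomal-RNA-depleted, strand-marking preparations of distal colon and read as single 100-base reads. The authors aligned them with STAR to mm10 and counted reads per gene with featureCounts of Subread (versions and the strand setting of the counting are not given in the sources used here), and the deposited values are raw counts for 39179 Ensembl genes. Gene names came from GENCODE and matched 37693 genes (96.2%). Groups and sexes came from the labels. Number blocks are runs of sample numbers.

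Counts were filtered by line with edgeR's filterByExpr, scaled by TMM and tested with edgeR 4.0.16 (quasi-likelihood, R 4.3.3), with Benjamini-Hochberg adjustment over all genes of a fit. Genotype fits held sex where a line had both, and score fits held genotype and sex. DESeq2 1.42.0 and limma-voom (limma 3.58.1) were alternatives. The fits were tested on simulated data with 200 changed genes. Correlations and neighbouring groups were tested with 100000 permutations (two-sided, scipy 1.17.1), whose smallest p is 1e-05. The correlations held no genotype or sex term, and the tests of neighbouring groups held no sex term. Intervals are 1.96 SE.

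Total counts ranged from 4344988 to 19993833 with a median of 15989625, and levels under 3 counts cannot be told from 0 at this depth. No pair of libraries of a group agreed within sampling noise (chi-square per gene of at least 4.01). The members and lists were chosen with earlier results of these data known. All members are named in every comparison. Of other lists, the gene with the smallest p is named, with up to 3 genes by role, and the 5 genes most like each member were taken for likeness. *Nrg2*, *Nrg3*, *Nrg4*, *Erbb4* and *Oca2* were named outside this rule, after their values were seen. Results of some genes of these lists are not reported here.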

Additional observations from a re-analysis of the deposited data

Results flagged for a closer look

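The highest and lowest mouse was set against the rest by Dixon's test in the genotype groups of a number block that held 4 to 10 mice, which gave 66 searches over the 6 genes. The *Dock2* line, the first *Dok3* block and the *Nckap1l* wild type of the third block lay outside these sizes and were not searched. Chance flags about 1 in 20, and 9 stood apart, in 6 mice. In *Gpsm3* knockout replicate 7, *S100b* was 1.42 CPM (others 2.23 to 3.49) and *Sox10* was 1.05 CPM (others 2.45 to 5.04). In *Nckap1l* wild-type replicate 8, *S100b* was 1.4 CPM (others 2.26 to 3.43) and *Sox10* was 2.1 CPM (others 3.94 to 6.47). *Gpsm3* wild-type replicate 14 had the highest *Gfap* of its group, 13.7 CPM (others 2.68 to 6.02), and the lowest *Erbb3*, 270.2 CPM (others 479.5 to 694.4). *Erbb3* was also lowest in *Gpsm3* knockout replicate 14, at 290.2 CPM (others 459.8 to 611.8), and in *Nckap1l* knockout replicate 8, at 315.9 CPM (others 499.9 to 576.5). In *Nckap1l* knockout replicate 15 *Gfap* was 2.04 CPM, against 7.21 to 8.64 in the others. The inflammation score level of that mouse was 0.88, and those of the other 5 mice lay between 4.87 and 6.54. The skin mean was 8.52 in *Nckap1l* knockout replicate 8, 2.03 in *Gpsm3* knockout replicate 14 and 0.04 to 1.69 in the other 4 mice. The part of either in these values was not tested.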

How the results depend on the processing

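Of 119 recomputed counts of called members, 108 stayed within 1.5 times the reported count. Of 678 recomputed member values, 605 kept their direction and their side of the threshold, 19 lost and 12 gained a call, and 42 changed sign, of which 41 were called in neither fit. *Gfap* and *S100b* kept their directions against the score in every alternative run. In the *Dock2* line DESeq2 called 1 member between genotypes, *Foxd3*. Between females and males of that line limma-voom called 1 (*Foxd3*), the score in the fit gave 1 (*Gfap*, 0.622) and leaving out the libraries of skin or striated muscle RNA gave 3. The interferon list as the score gave 0 members in the *Dock2* line, with *Erbb3* at 0.026, and *Erbb3* lost its call in all 3 lines where it had one. The calls gained against the score were *Sox10* in the *Nckap1l* line with the colon epithelium mean in the fit and *Cdh19* in the *Nckap1l* line under 3 settings. In the *Gpsm3* line the smooth muscle mean, or the skin and striated muscle means, in the fit left 1 member following the score (*Gfap*), and between blocks limma-voom and the score in the fit each gave 1 (*Sox10*). By limma-voom 1 member differed between the *Nckap1l* blocks (*Sox10*) and 1 slope differed between lines (*Erbb3*). The cause was not tested for any of these.

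These values, called in neither fit, changed sign. Without sex in the fit the genotype difference was -0.005 for *S100b* in the *Nckap1l* line and -0.009 for *Gfap* in the *Dock2* line. In males only the genotype difference was -0.219 for *Gfap* in the *Nckap1l* line, 0.038 for *Sox10* in the *Nckap1l* line and -0.034 for *Gfap* in the *Dock2* line. Without the libraries of skin or striated muscle RNA the genotype difference was -0.335 for *Gfap* in the *Nckap1l* line, 0.39 for *Sox10* in the *Nckap1l* line, 0.057 for *S100b* in the *Gpsm3* line, -0.179 for *Foxd3* in the *Gpsm3* line, -0.158 for *Gfap* in the *Dok3* line and 0.083 for *Sox10* in the *Dok3* line, and the sex difference was 0.117 for *Erbb3* in the *Nckap1l* line and -0.027 for *Erbb3* in the *Dock2* line. With the smooth muscle mean in the fit the slope was 0.004 for *Sox10* in the *Nckap1l* line, 0.026 for *Foxd3* in the *Nckap1l* line, 0.055 for *Sox10* in the *Gpsm3* line and 0.076 for *Foxd3* in the *Gpsm3* line. By limma-voom the sex difference was 0.001 for *Sox10* in the *Nckap1l* line, and the genotype difference was 0.016 for *S100b* in the *Gpsm3* line, -0.047 for *Gfap* in the *Gpsm3* line and -0.016 for *Gfap* in the *Dok3* line. With the skin and striated muscle means in the fit the genotype difference was -0.019 for *Gfap* in the *Dock2* line, 0.005 for *Cdh19* in the *Dock2* line, -0.002 for *Foxd3* in the *Gpsm3* line, 0.007 for *Sox10* in the *Dok3* line and -0.043 for *Erbb3* in the *Dok3* line, and the slope was 0.051 for *Sox10* in the *Gpsm3* line, 0.037 for *Foxd3* in the *Gpsm3* line, 0.016 for *Erbb3* in the *Gpsm3* line and -0.013 for *Sox10* in the *Dok3* line. Without the 2 mice farthest from the median score the slope was 0.029 for *Sox10* in the *Dock2* line and 0.005 for *Erbb3* in the *Gpsm3* line. With the inflammation score in the fit the sex difference was -0.082 for *Erbb3* in the *Dock2* line, and the genotype difference was 0.073 for *S100b* in the *Gpsm3* line and -0.164 for *Gfap* in the *Gpsm3* line. Without libraries under 10000000 counts the genotype difference was 0.007 for *S100b* in the *Gpsm3* line, and the slope was 0.006 for *Cdh19* in the *Dok3* line. With the interferon list as the score the slope was 0.004 for *Erbb3* in the *Gpsm3* line. Without the 5 *Dok3* libraries of differing sex markers the genotype difference was -0.074 for *Gfap* in the *Dok3* line. With the colon epithelium mean in the fit the slope was -0.039 for *Sox10* in the *Dok3* line and -0.026 for *Foxd3* in the *Dok3* line.

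No paired analysis was possible because the labels give no number that ties a knockout to a wild-type mouse, and groups of 15 or more were not reduced by single mice. Of the settings, those that leave out libraries of skin or striated muscle RNA or under 10000000 counts, the score of all 20 listed genes, the females-only fit, the slopes of differences and the correlations with tissue lists were chosen after seeing the data. Depth limits *Foxd3* most, at 2 to 50 counts.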
